A study of Mus musculus with 12 samples.

Results

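Laminins, collagen IV, nidogens and perlecan make up the basement membrane, the sheet of matrix that surrounds every cardiomyocyte and lies under the endothelium of every capillary. The genes described here are 10 of the 18530 genes in the deposited table, picked by symbol: the collagen IV chains Col4a1 and Col4a2, the laminin chains Lama2, Lama4, Lamb1, Lamb2 and Lamc1, the nidogens Nid1 and Nid2, and perlecan, Hspg2. Each has 1 row in the table, and all 10 passed the filter on low values, at least 1 TPM in at least 3 libraries. TPM (transcript share, summing to 1000000 in each library) is a level scaled by gene length and library total, so that levels of different genes can be set side by side.

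Poly-A RNA was sequenced from isolated mouse cardiomyocytes, with 3 libraries for each combination of genotype (mdx or mdx:Utrn+/-) and treatment (saline or PB1046), which gives 4 groups. All 4 groups carry the mdx mutation, which removes dystrophin, and no group with dystrophin is analysed here. The mdx:Utrn+/- mice also have a single working copy of Utrn, which encodes utrophin, the protein most like dystrophin. PB1046 is a long-acting analog of vasoactive intestinal peptide, and the subject named by the series is signaling through cAMP, PKA and CREB and through NF-kB. Mice were dosed on alternate days between 4 and 12 weeks of age, and cardiomyocytes were isolated from hearts of 14 weeks. Doses of 0.75 and 1.5 mg/kg are named, and the PB1046 labels say high dose, taken as 1.5 mg/kg. Sex is not given, and the batch label repeats the group. The titles imply a mouse per library but the labels do not say so, so p-values measure the spread between these libraries.

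In the basement membrane, laminins are trimers of an alpha, a beta and a gamma chain that assemble into a first network at the cell surface. Collagen IV, a trimer of alpha chains, forms a second, covalently crosslinked network, and nidogens and perlecan bridge the networks. In striated muscle the laminin alpha2 chain, from Lama2, binds alpha-dystroglycan, the receptor that dystrophin or utrophin links to the cytoskeleton. Laminin alpha4, from Lama4, is known as a chain of vascular laminins.

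Depth and purity set the frame for these values. Whole reads recovered from the TPM came to 7233044 to 25449491 per library. The member with fewest reads, Nid2, rested on 73 to 524 reads, and Lamb2 on 2203 to 11444. Utrn, the check of the genotype, averaged 9.82 ± 1.29 TPM in the mdx libraries under saline and 4.97 ± 1.51 TPM in those of mdx:Utrn+/- (SD, n = 3), where the groups did not overlap. Under PB1046 it was at 13.8 ± 6.71 and 6.84 ± 2.82 TPM, and the groups overlapped. Under saline, 15.1% of all genes lay lower in mdx:Utrn+/- without overlap in TPM. The summed level of 8 cardiomyocyte markers was 76221 to 106940 TPM, and all 8 were above 0 in every library. Markers of other cells were also detected: 12 endothelial markers summed to 257 to 1683 TPM, 10 smooth muscle and pericyte markers to 119 to 456 TPM, and 11 fibroblast markers to 307 to 1796 TPM. All of these markers were above 0 in every library. Of 3 adipocyte markers none passed the filter, and the sum was at most 3.69 TPM.

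Lamb2 and the collagen IV chains were the most abundant of the 10 genes, and no gene of the 10 passed the test in any comparison. The test was limma on log2(scaled TPM + 1) over 12798 genes, with a call at Benjamini-Hochberg adjusted p under 0.05. It called none of the 12798 genes (0.0%) in any of the 5 contrasts, and the lowest adjusted p of a member was 0.854. Most of the variation of each member lay between libraries of the same group. Summed over the 10 genes, the level ranged from 316 TPM in mdx:Utrn+/- PB1046 replicate 1 to 637 TPM in mdx:Utrn+/- PB1046 replicate 2, the lowest and the highest of all libraries in 1 group. Between groups lay 39.4% of the variance of Nid1 on the scaled log2 values, the highest share of the 10, and 3.36% of that of Hspg2, the lowest. With so few libraries, part of such a share arises without any group difference, and the shares were not tested.

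**Figure D1:**
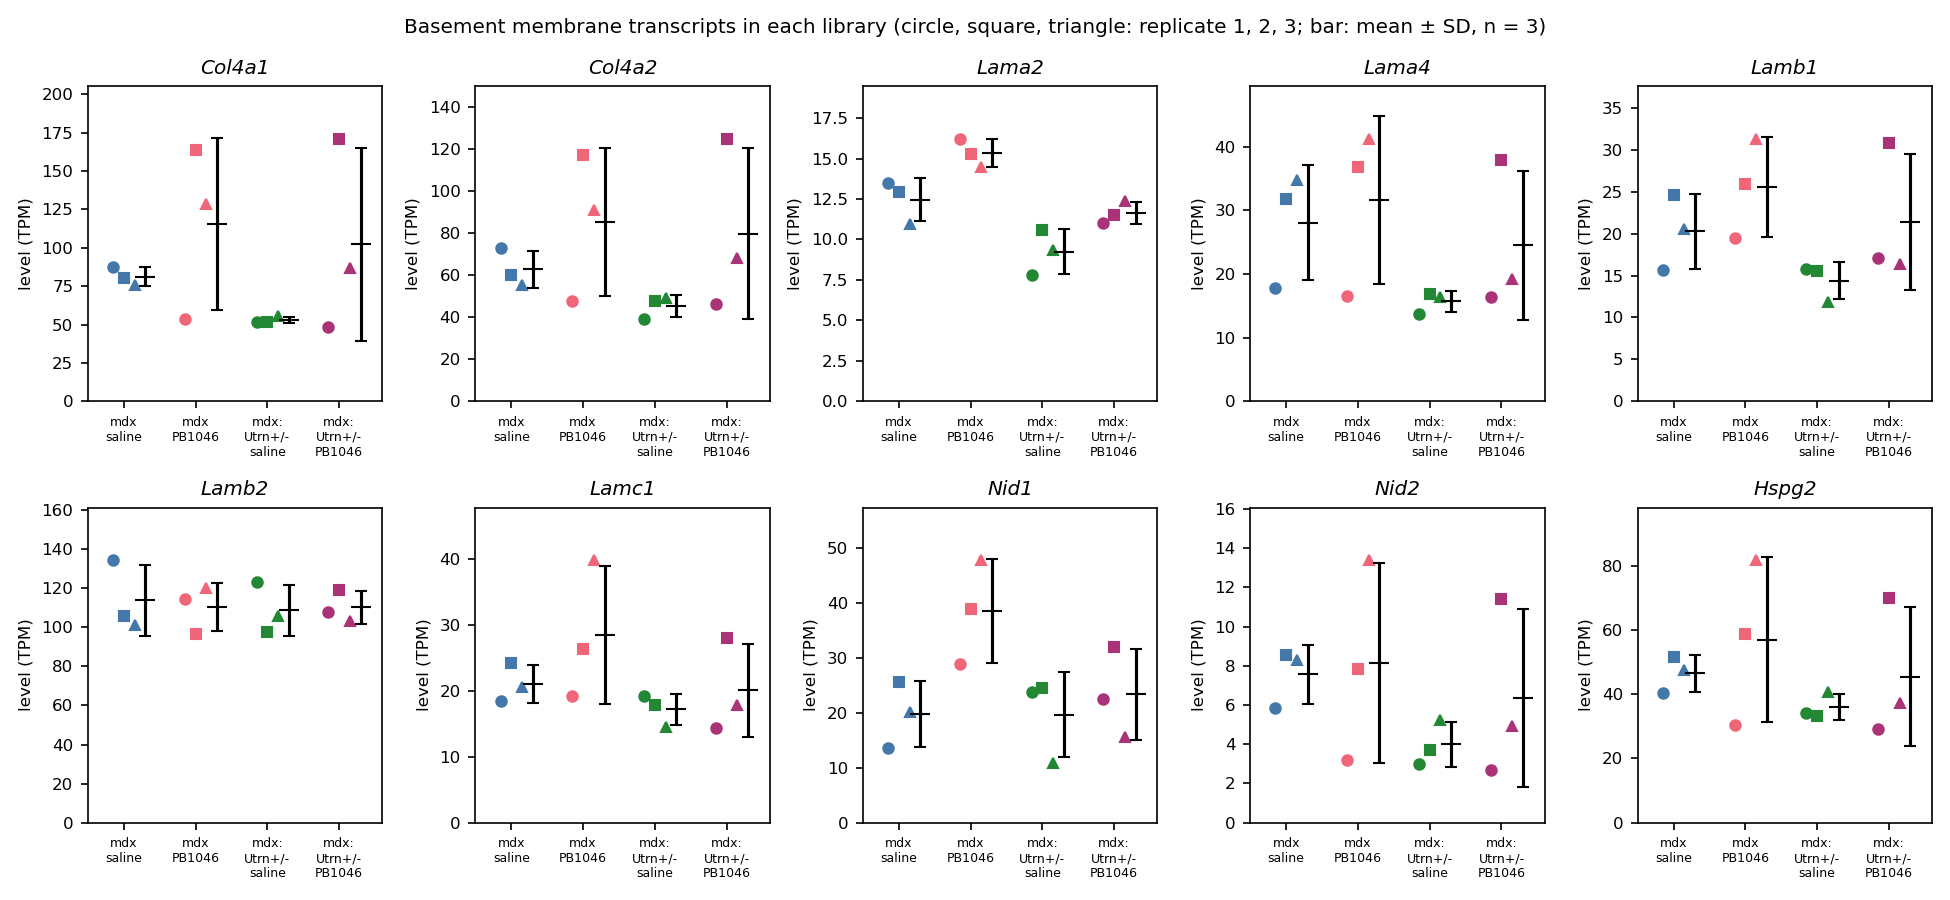
Level in TPM of each of the 10 genes (vertical axes from 0) in the 4 groups of 3 libraries (horizontal axis), with a point per library, shaped by replicate number, and mean ± SD beside it. In most panels 2 of the mdx PB1046 libraries and replicate 2 of mdx:Utrn+/- PB1046 stand high, while Lamb2 stays between 96.8 and 134 TPM throughout.

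The collagen IV genes lie head to head on chromosome 8, Col4a1 at 11198423 to 11312826 on the minus strand and Col4a2 at 11312829 to 11449287 on the plus strand (mm10, from the deposited table, each a whole gene with its exons and introns, as for the other members below). Their promoters are shown because the 2 genes had the highest Pearson r of the 45 pairs of members. The sequences are from RefSeq on GRCm38.p6, 250 bases before the start and 50 from it, read 5′ to 3′ along each gene. Capitals mark a CCAAT box (CCAAT) or a GC box (GGGCGG), read on either strand. The Col4a1 window is chr8:11312777-11313076 on the minus strand, and the Col4a2 window is chr8:11312555-11312854 on the plus strand.
Col4a1: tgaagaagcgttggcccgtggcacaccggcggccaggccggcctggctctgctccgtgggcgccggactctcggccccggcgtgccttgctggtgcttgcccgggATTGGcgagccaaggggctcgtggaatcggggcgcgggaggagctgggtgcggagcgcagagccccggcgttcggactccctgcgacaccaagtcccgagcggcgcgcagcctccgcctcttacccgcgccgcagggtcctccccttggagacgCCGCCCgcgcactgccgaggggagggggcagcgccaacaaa
Col4a2: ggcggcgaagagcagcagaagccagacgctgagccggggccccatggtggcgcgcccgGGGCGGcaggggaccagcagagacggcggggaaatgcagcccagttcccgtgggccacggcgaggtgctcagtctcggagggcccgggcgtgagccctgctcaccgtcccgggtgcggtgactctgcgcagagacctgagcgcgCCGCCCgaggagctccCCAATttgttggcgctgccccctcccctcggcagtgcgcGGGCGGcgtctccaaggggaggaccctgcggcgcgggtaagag

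The windows share 78 bases, 11312777 to 11312854, which hold the RefSeq starts of both genes. A single GC box at 11312812 to 11312817 lies downstream of both starts, and is the only GC box of the Col4a1 window. Col4a2 has 2 further GC boxes and a CCAAT box 32 to 28 bases before its start, and Col4a1 a CCAAT box 145 to 141 bases before its own, which its printed sequence reads as the reverse complement, ATTGG. G and C made up 74.0% and 73.7% of the bases, against a median of 52.7% over 32851 RefSeq promoters of the same length. A CCAAT box was in 37.4% of those promoters and a GC box in 35.7%. Promoters were matched for 7 of the 10 genes, all but Lama4, Lamc1 and Nid2. In these 7, the full cAMP response element (TGACGTCA, in 1.79% of promoters), a TATA box (TATAAA, 13.6%) and the kappaB consensus (5.8%) had no match on either strand. The half-site of the cAMP response element (TGACG, contained in the full element, 20.8%) had 1 match, in Lamb2. Hspg2 had 5 GC boxes, Lamb1 had 2, and Lama2 and Nid1 had 1 each. Lamb1 and Nid1 also had a CCAAT box each.

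Col4a1 and Col4a2 encode the alpha1 and alpha2 chains of the collagen IV that most tissues share. Col4a1 was at 87.7, 80.5 and 75.6 TPM in mdx saline, at 53.9, 164 and 129 TPM in mdx PB1046, at 51.9, 51.8 and 55.4 TPM in mdx:Utrn+/- saline, and at 48.4, 171 and 87.1 TPM in mdx:Utrn+/- PB1046. The saline groups were tight and did not overlap, while each PB1046 group held libraries below and above all 3 mdx saline libraries. In TPM, 15.1% of all genes lay lower in mdx:Utrn+/- than in mdx under saline without overlap. Col4a2 was at 72.7, 60.1 and 55.4 TPM in mdx saline, 47.7, 117 and 91.0 in mdx PB1046, 39.2, 47.6 and 49.3 in mdx:Utrn+/- saline, and 46.2, 125 and 68.0 in mdx:Utrn+/- PB1046. The 3 highest libraries were the same for both chains, with mdx:Utrn+/- PB1046 replicate 2 first. Over 12 libraries the chains had Pearson r 0.95 and Spearman rho 0.78 on the log2 scale (permutation p 3e-05 and 0.00342, adjusted over 45 pairs 0.000675 and 0.04). Leaving out the 2 libraries most distant from the Col4a1 median gave r 0.86, and within groups r was 0.95. The ratio of Col4a1 to Col4a2 stayed between 1.05 and 1.42. Whether reads were assigned by strand is not given in the sources used here, though the kit marks strand.

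The PB1046 difference of the collagen IV chains did not pass the test in either genotype. In mdx:Utrn+/- Col4a1 differed by 0.57 (SE 0.33) and Col4a2 by 0.51 (SE 0.27) on the log2 scale, with limma p 0.108 and 0.0823 and adjusted p 0.998. Single libraries moved these values both ways: without replicate 2 of mdx:Utrn+/- PB1046 they were 0.24 and 0.26, and without replicate 1 of that group 0.89 and 0.72 (limma p 0.0168 and 0.0262). With any library left out, the lowest adjusted p was 0.623 for Col4a1 and 0.583 for Col4a2. The authors' deposited table gives 0.68 for Col4a1 (p 0.05, false discovery rate 1) and 0.57 for Col4a2 (p 0.0683), turned here to PB1046 minus saline. In mdx the differences were 0.20 for Col4a1 and 0.19 for Col4a2. The difference between the responses was 0.37 for Col4a1, with a 95% interval from -0.64 to 1.38. Beside these, all 12 endothelial markers were higher with PB1046 in mdx:Utrn+/-, with a median of 0.58 and none past adjusted p. In mdx 4 of the 12 were higher and 8 lower, with a median of -0.08 and none past adjusted p. The endothelial score was the mean centred log2 level of those markers. With it as a term in the fit, the Col4a1 and Col4a2 differences were 0.28 and 0.33 in mdx:Utrn+/-, and both 0.20 in mdx.

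Lama2, on chromosome 10 from 26981285 to 27616942, encodes laminin alpha2, the chain of muscle fibers and cardiomyocytes. It was at 13.5, 12.9 and 11.0 TPM in mdx saline, 16.2, 15.3 and 14.5 in mdx PB1046, 7.80, 10.6 and 9.35 in mdx:Utrn+/- saline, and 11.0, 11.5 and 12.4 in mdx:Utrn+/- PB1046. In deposited TPM PB1046 lay above saline in both genotypes and mdx above mdx:Utrn+/- under both treatments, with no overlap in any of the 4 comparisons. Such a pattern was shown by 6.56% of all genes for PB1046 in mdx, 5.14% for PB1046 in mdx:Utrn+/-, 15.1% under saline and 6.33% under PB1046. After scaling, all 4 pairs of groups overlapped, and the differences were between -0.16 and 0.14 on the log2 scale, each with SE 0.21. With the endothelial score as a term, the Lama2 difference was 0.34 for PB1046 in mdx:Utrn+/- (limma p 0.0417, adjusted p 0.999) and -0.37 between genotypes under saline (p 0.0311, adjusted p 0.993), both larger than without it (0.14 and -0.16). Group means in deposited TPM moved together for many genes: left unscaled, the median gene differed by 0.143 for PB1046 in mdx, by 0.148 for PB1046 in mdx:Utrn+/-, and by -0.198 between the genotypes, whichever treatment they had. The factors ran from 0.828 in mdx:Utrn+/- PB1046 replicate 1 to 1.31 in mdx PB1046 replicate 3.

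Lama4 lies on the same chromosome from 38965515 to 39110188 and encodes laminin alpha4. It was at 17.7, 31.8 and 34.7 TPM in mdx saline, 16.6, 36.9 and 41.3 in mdx PB1046, 13.8, 16.9 and 16.4 in mdx:Utrn+/- saline, and 16.5, 38.0 and 19.2 in mdx:Utrn+/- PB1046. High libraries, at 31.8 TPM or more, were 2 of each mdx group and 1 of mdx:Utrn+/- PB1046, and the rest were at 19.2 TPM or less. After scaling, the mdx:Utrn+/- PB1046 libraries lay above the saline ones with no overlap, as did 2.89% of genes, with a log2 difference of 0.35 (SE 0.29, limma p 0.245). This was 0.05 with the endothelial score as a term and 0.13 without mdx:Utrn+/- PB1046 replicate 2. Between genotypes under saline, the log2 difference was -0.50 (SE 0.29, limma p 0.106, adjusted p 0.854). With the endothelial score as a term it was -0.17. With single libraries left out it ran from -0.77 (p 0.0184, without mdx saline replicate 1) to -0.31 (without mdx saline replicate 3), with a lowest adjusted p of 0.474. From the lowest to the highest library Lama4 spread 3.00-fold and Lama2 2.08-fold, and the ratio of Lama4 to Lama2 ran from 1.02 in mdx PB1046 replicate 1 to 3.31 in mdx:Utrn+/- PB1046 replicate 2.

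Lamb2, on chromosome 9 from 108479862 to 108490530, encodes laminin beta2, the beta chain enriched at neuromuscular and vascular basement membranes, and was the steadiest member in deposited TPM. It was at 134, 106 and 101 TPM in mdx saline, 115, 96.8 and 120 in mdx PB1046, 123, 97.6 and 106 in mdx:Utrn+/- saline, and 108, 119 and 103 in mdx:Utrn+/- PB1046. All 4 groups overlapped, with means from 109 to 114 TPM and a coefficient of variation of 10.4% over the 12 libraries, against 20.2% to 52.9% for the other members. This did not hold on the scaled log2 values, where Lamb2 ran from 6.27 to 7.21, a wider range than that of Lama2 (3.37 to 4.21) or Lamc1 (4.14 to 4.98). Lamb2 made up 16.5% to 37.1% of the summed level of the 10 genes.

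Lamb1, on chromosome 12 from 31265294 to 31329639, encodes laminin beta1. Lamc1, on chromosome 1 from 153218922 to 153332786, encodes laminin gamma1, the gamma chain of most laminins. Lamb1 was at 15.6, 24.6 and 20.6 TPM in mdx saline, 19.5, 25.9 and 31.3 in mdx PB1046, 15.7, 15.5 and 11.8 in mdx:Utrn+/- saline, and 17.1, 30.8 and 16.4 in mdx:Utrn+/- PB1046. Within mdx:Utrn+/-, every PB1046 library was above every saline library in TPM, as for 5.14% of all genes, but not after scaling. The log2 difference was 0.32 (SE 0.21, limma p 0.141). Lamb2 was 3.74 to 8.95 times as abundant as Lamb1 in the same library. Lamc1 was at 18.5, 24.2 and 20.6 TPM in mdx saline, 19.2, 26.3 and 39.9 in mdx PB1046, 19.2, 17.9 and 14.6 in mdx:Utrn+/- saline, and 14.4, 28.0 and 17.8 in mdx:Utrn+/- PB1046. Its groups overlapped in every comparison, and its log2 differences lay between -0.24 and 0.20.

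Nid1, on chromosome 13 from 13437602 to 13512275, encodes nidogen 1, which binds the laminin gamma1 chain and collagen IV. It was at 13.6, 25.6 and 20.0 TPM in mdx saline, 28.9, 38.9 and 47.7 in mdx PB1046, 23.7, 24.5 and 10.8 in mdx:Utrn+/- saline, and 22.5, 31.9 and 15.5 in mdx:Utrn+/- PB1046. The 3 mdx PB1046 libraries lay above all 3 mdx saline libraries, in deposited TPM (6.56% of all genes) and after scaling (4.0%). The log2 difference in mdx was 0.78 (SE 0.32, 95% interval 0.08 to 1.48), a 1.72-fold difference on the log2(scaled TPM + 1) scale. It had limma p 0.0317 and adjusted p 0.999, so it was not called. An unadjusted p under 0.05 was met by 3.08% of all genes in this contrast, 1.84% higher and 1.24% lower with PB1046. Nid1 was the 1 member of 10 that met it. The authors' deposited table gives 0.79 for Nid1, with p 0.0203 and a false discovery rate of 1.

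The Nid1 difference in mdx was smaller with 2 terms in the fit but not with the endothelial score, where it was 0.78 (limma p 0.0354, adjusted p 0.892). It was 0.48 (p 0.0994) with the fibroblast score as a term. With log2 Rn45s, the level of the ribosomal RNA precursor entry and a term chosen after seeing the data, it was 0.40 (p 0.117). Without mdx saline replicate 1 it was 0.57 (p 0.125), and p was also above 0.05 without mdx PB1046 replicate 1 (0.0512) or 3 (0.0847). Over all 12 libraries left out in turn it ran from 0.57 to 0.95. Beside it, 9 of 10 smooth muscle and pericyte markers, 10 of 11 fibroblast markers and 8 of 8 macrophage markers were higher with PB1046 in mdx, with medians of 0.37, 0.50 and 0.45 and none past adjusted p. The mean level of Rn45s was 6351 ± 4807 TPM with saline and 19574 ± 7298 TPM with PB1046 in mdx (SD, n = 3). For mdx:Utrn+/- the order was the reverse, at 17976 ± 21316 TPM with saline and 9647 ± 8315 TPM with PB1046. Those saline libraries ran from 1708 to 42106 TPM. In mdx:Utrn+/- the Nid1 difference was 0.09 (SE 0.32), and the difference between the responses was -0.70 (SE 0.45, limma p 0.152, adjusted p 0.999). With single libraries left out this ran from -1.08 (p 0.0121, without mdx:Utrn+/- saline replicate 3) to -0.47 (without mdx:Utrn+/- PB1046 replicate 3), with a lowest adjusted p of 0.353. It was -0.23 with the fibroblast score and -0.16 with log2 Rn45s as a term.

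Nid2, on chromosome 14 from 19751257 to 19811787, encodes nidogen 2, which binds the same partners. It was at 5.84, 8.57 and 8.30 TPM in mdx saline, 3.19, 7.85 and 13.4 in mdx PB1046, 3.00, 3.72 and 5.24 in mdx:Utrn+/- saline, and 2.71, 11.4 and 4.93 in mdx:Utrn+/- PB1046. The lowest and the second highest library came from the same group, and the spread of 4.95-fold was the widest of the 10 genes. Under saline, mdx:Utrn+/- lay below mdx in TPM without overlap, as for 15.1% of all genes, but overlapped it after scaling. The log2 difference was -0.57 (SE 0.37, limma p 0.146). The difference was -0.09 once the endothelial score was added to the fit. On the scaled log2 values the level of Nid2 did not follow that of Nid1 across all libraries. The genes had r -0.04 (permutation p 0.91, adjusted 0.932) and rho -0.06, while on TPM without scaling factors r was 0.41. Their ratio ran from 2.06 to 9.06.

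Hspg2, on chromosome 4 from 137468803 to 137570630, encodes perlecan, the large heparan sulfate proteoglycan of vessel and muscle basement membranes. It was at 40.4, 51.6 and 47.5 TPM in mdx saline, 30.5, 58.6 and 81.8 in mdx PB1046, 34.1, 33.1 and 40.8 in mdx:Utrn+/- saline, and 29.2, 70.0 and 37.3 in mdx:Utrn+/- PB1046. Groups overlapped in all 4 comparisons, and its log2 differences were between -0.10 and 0.06. The 2 highest of these libraries were also the 2 highest for Nid2. The genes had r 0.92 and rho 0.94 (permutation p 1e-05 and 4e-05, adjusted 0.00045 and 0.0018), and r 0.97 within groups. A p of 1e-05 is the smallest that 100000 permutations can give.

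The order of the group means in TPM, without scaling factors, was alike for most members, but few neighbours in it were further apart than the larger of their SDs. For Col4a1, with means of 115 ± 56.0 in mdx PB1046, 102 ± 62.8 in mdx:Utrn+/- PB1046, 81.3 ± 6.08 in mdx saline and 53.0 ± 2.01 in mdx:Utrn+/- saline (SD, n = 3), the last gap alone exceeded the SD. Col4a2 and Lamb1 had the same order with the same single gap. For Lama2 the order was mdx PB1046 (15.3 ± 0.870), mdx saline (12.5 ± 1.33), mdx:Utrn+/- PB1046 (11.6 ± 0.695) and mdx:Utrn+/- saline (9.26 ± 1.41), where the middle neighbours did not differ beyond their SD. Lama4, Lamc1, Nid2 and Hspg2 had the order of Lama2 with no gap over the SD. For Nid1 mdx PB1046, at 38.5 ± 9.41, stood above the other groups, whose means of 19.7 to 23.3 did not differ beyond their SDs. Lamb2 had no gap over the SD either. The unscaled differences of the median gene, given with Lama2 above, yield the order that Lama2 had, so this order is not particular to the members. After scaling, PB1046 lay below saline in mdx for Lama4 (log2 difference -0.04), Nid2 (-0.22) and Lamb2 (-0.20, lower in TPM too). In mdx:Utrn+/- it lay below saline for Lamc1 (-0.01) and Lamb2 (-0.16). Each of these differences was within its SE. The collagen IV chains were then highest in mdx:Utrn+/- PB1046, while Lama2, Lamb1 and Hspg2 kept their order.

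Set side by side, the comparisons gave each member's direction but no call. For PB1046 in mdx, 7 members were higher and 3 lower, with a median of 0.15 against -0.003 for all genes. For PB1046 in mdx:Utrn+/-, 8 were higher and 2 lower, with a median of 0.19 against -0.011, and none of the 10 had unadjusted p under 0.05, met by 1.96% of all genes (0.867% higher, 1.09% lower). On scaled values, no member lay lower with PB1046 without overlap, as 4.31% of genes did in mdx and 2.75% in mdx:Utrn+/-, and in deposited TPM none did either, against 2.06% and 1.06%. Without scaling factors the counts of members higher and lower became 8 and 2 in mdx, and 10 and 0 in mdx:Utrn+/-. The first 2 contrasts share no libraries, but each shares libraries with the genotype contrasts.

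Between genotypes under saline, 2 members were higher in mdx:Utrn+/- and 8 lower, with a median of -0.18 against 0.025 for all genes, and without scaling factors all 10 were lower. No member had unadjusted p under 0.05, against 4.02% of genes (2.32% higher, 1.7% lower). In deposited TPM 5 members (Col4a1, Col4a2, Lama2, Lama4 and Nid2) lay below mdx with no overlap, where 15.1% of all genes did. After scaling only Col4a1 did, against 4.09% of genes, and no member lay above mdx without overlap, as 5.5% of genes did. Beside this, all 12 endothelial markers were lower in mdx:Utrn+/- under saline, with a median of -0.69 and none past adjusted p. With the endothelial score as a term, 4 members were higher and 6 lower. Under PB1046, 3 were higher and 7 lower, with a median of -0.09, no unadjusted p under 0.05 (1.66% of genes, 0.86% higher and 0.797% lower), and 0 and 10 without scaling factors. On scaled values Nid1 lay lower in mdx:Utrn+/- without overlap, as 3.16% of genes did, and no member higher, as 2.51% did. For the difference of the responses, 8 were higher and 2 lower, with a median of 0.10, and again no unadjusted p under 0.05 (2.25% of genes, 1.08% higher and 1.17% lower).

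**Figure D2:**
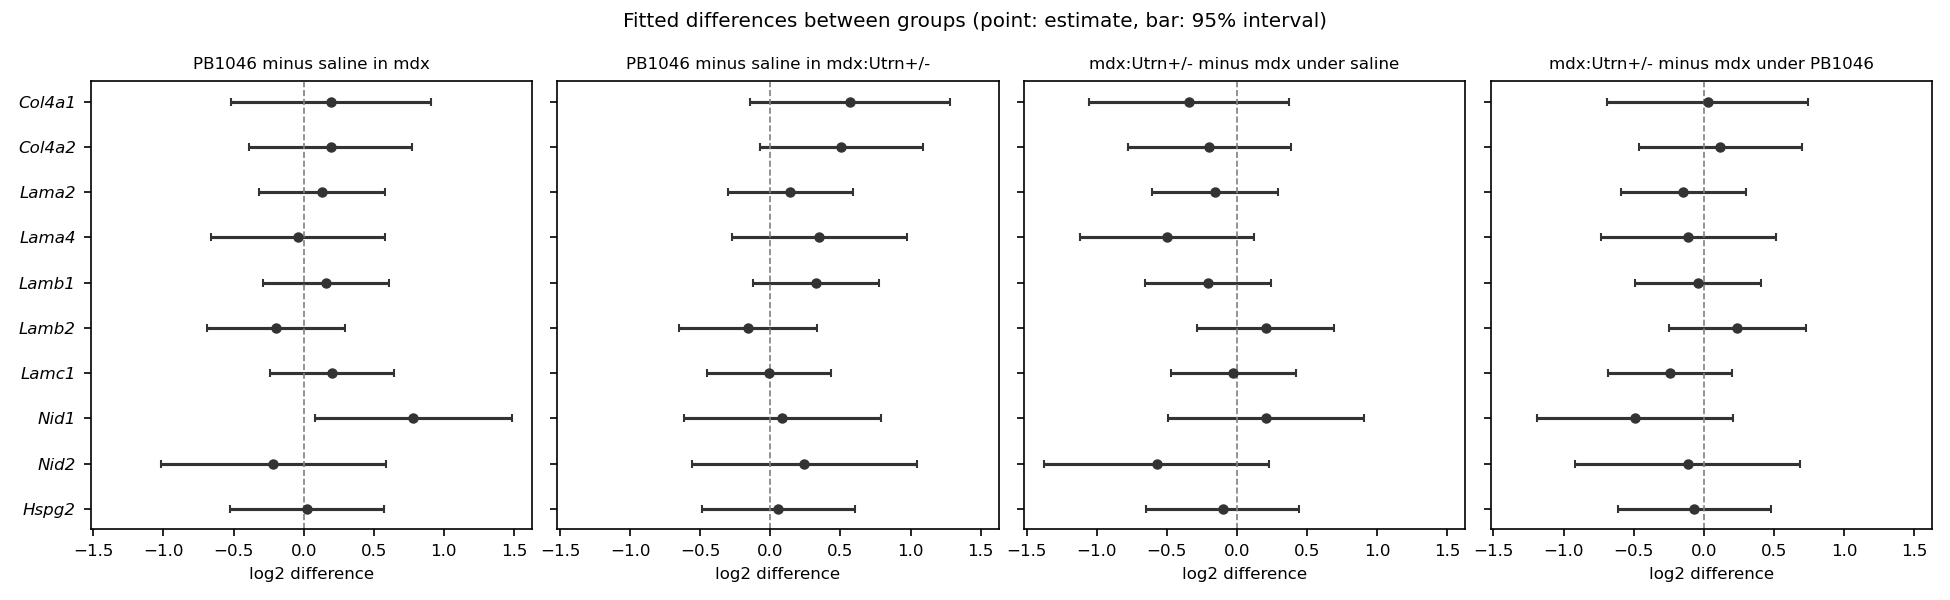
Fitted log2 differences (horizontal axes, log2(scaled TPM + 1) scale) of the 10 genes in the 4 group comparisons, with points for the estimate and bars for the 95% interval from limma. The interval of Nid1 for PB1046 in mdx, 0.08 to 1.48, is the one that does not reach 0 before adjustment.

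In bulk RNA, fewer cells of a type and less RNA per cell cannot be told apart, and the following relations over libraries carry that limit. The level of each member was set against 5 marker scores, 50 relations in all, with permutation p-values adjusted over the 50. By Pearson r 15 of them passed adjusted p under 0.05, and 7 passed by both Pearson and Spearman.

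Nid2, Hspg2, Lama4 and Col4a1 were high where endothelial markers were high. Those markers summed to 1683 TPM in mdx PB1046 replicate 3, to 1310 TPM in mdx:Utrn+/- PB1046 replicate 2 and to 960 TPM in mdx PB1046 replicate 2, the 3 highest libraries, and were lowest, at 257 TPM, in mdx PB1046 replicate 1. Nid2 had r 0.93 and rho 0.92 with the endothelial score (p 3e-05 and 8e-05, adjusted 0.001 and 0.004). Hspg2 had r 0.93 and rho 0.87 (p 4e-05 and 0.00046, adjusted 0.001 and 0.0112). Both held within groups, at r 0.95 for Nid2 and 0.98 for Hspg2, and without the 2 libraries farthest from the median score, at 0.87 and 0.84. Lama4 had r 0.89 and rho 0.85 (p 0.00017 and 0.00087, adjusted 0.00213 and 0.0112), 0.86 within groups and 0.85 without those 2 libraries. For Col4a1, r was 0.75 and rho 0.85 (p 0.00503 and 0.0009, adjusted 0.0279 and 0.0112), 0.70 within groups and 0.63 without the 2. Col4a2 did not pass, at r 0.61 (p 0.0355, adjusted 0.0934) and rho 0.53 (p 0.0787, adjusted 0.199). On TPM without scaling factors r was 0.96, 0.97, 0.94 and 0.87 for Nid2, Hspg2, Lama4 and Col4a1. Without scaling r also rose for Col4a2, Lamb1 and Lamc1, to 0.81, 0.81 and 0.83, so these values add no separate support. Of the numbers in the library names, the lowest belong to mdx PB1046 replicate 1, mdx:Utrn+/- PB1046 replicate 1, mdx:Utrn+/- saline replicates 1 and 2, and mdx saline replicate 1. These libraries also had the lowest endothelial scores, from -0.91 to -0.30, and whether library order plays a part was not tested.

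**Figure D3:**
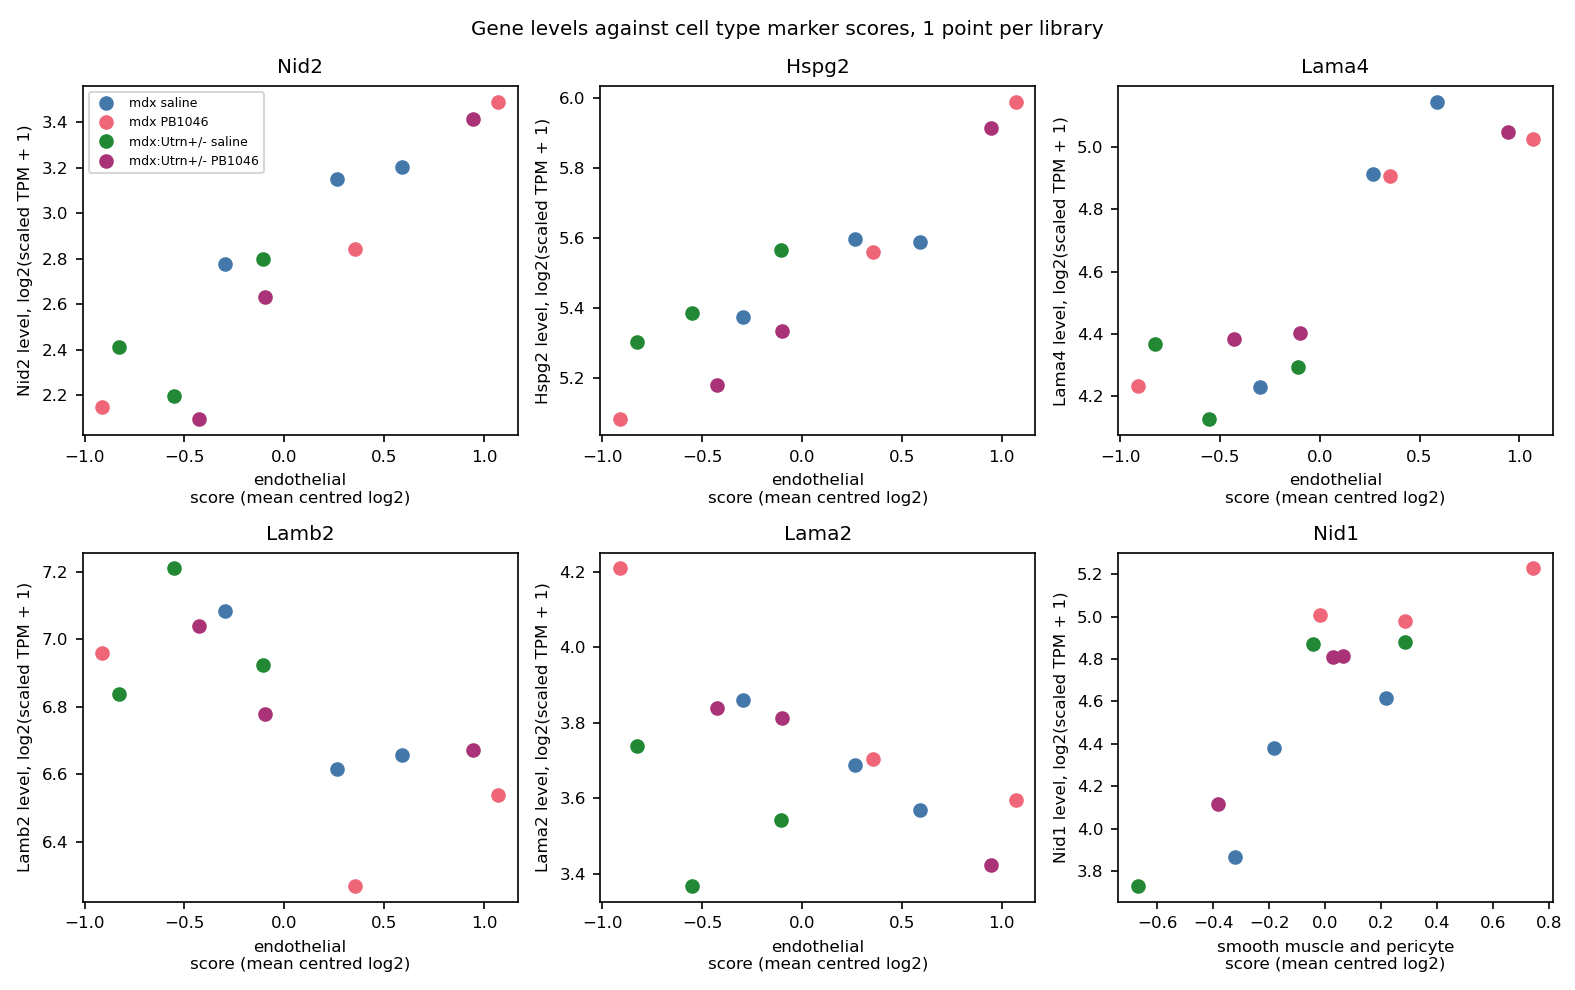
Level of 6 genes, as log2(scaled TPM + 1) on the vertical axes, against the endothelial score or, for Nid1, the smooth muscle and pericyte score (horizontal axes, mean centred log2), with a point per library colored by group. Nid2, Hspg2 and Lama4 rise along the endothelial score from -0.91 to 1.07, and all 3 mdx:Utrn+/- saline libraries have endothelial scores below 0.

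Nid1 was related to another marker score. It had r 0.88 and rho 0.80 with the smooth muscle and pericyte score (p 0.00011 and 0.00337, adjusted 0.00183 and 0.0318), 0.86 within groups and 0.80 without the 2 farthest libraries. With the endothelial score it had r 0.11 (p 0.72, adjusted 0.845) and rho -0.06 (p 0.85, adjusted 0.922). With the fibroblast score it had r 0.74 (p 0.00712, adjusted 0.0347) and rho 0.72 (p 0.0112, adjusted 0.0633). Lamc1 and Lamb1 had r 0.79 and 0.73 with the smooth muscle and pericyte score (p 0.00329 and 0.00764, adjusted 0.0235 and 0.0347), and rho 0.65 and 0.61 (adjusted 0.117 and 0.143). But without the 2 farthest libraries, mdx PB1046 replicate 3 and mdx:Utrn+/- saline replicate 3, r fell to 0.39 and 0.47, so that these rest on those libraries. On TPM without scaling factors, Nid1 had r 0.92 with the smooth muscle and pericyte score and 0.48 with the endothelial score. Unscaled, Lama4, Hspg2, Nid2 and Col4a1 had r 0.74, 0.71, 0.62 and 0.62 with the smooth muscle and pericyte score. With scaling these were 0.47, 0.36, 0.25 and 0.23, so the members are less clearly apart without scaling.

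The relations of Lamb2 and Lama2 also changed with the scaling. Lamb2 had r -0.70 and rho -0.78 with the endothelial score (p 0.0114 and 0.00382, adjusted 0.0438 and 0.0318), but r 0.04 on TPM without scaling factors. For Lama2 r was -0.53 with scaling (p 0.0709, adjusted 0.161), -0.91 within groups, and 0.31 without scaling. The relations to the cardiomyocyte score weakened too: for Lamc1, r was -0.86 with scaling (p 0.00052, adjusted 0.0052) and -0.49 without, and for Hspg2 -0.81 (p 0.00145, adjusted 0.0121) and -0.35. Cardiomyocyte markers are a large part of each library, and the factor and this score come from the same values. The part of the cell type mix in the group differences was tested only through the endothelial and fibroblast terms given above.

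**Figure D4:**
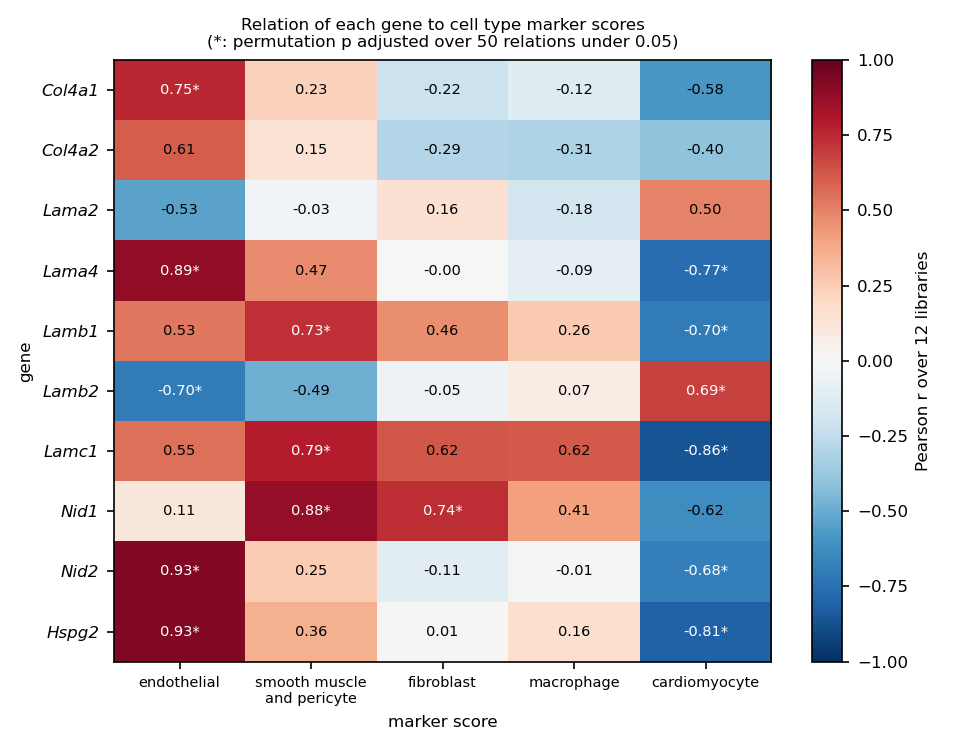
Pearson r over 12 libraries between each of the 10 genes (rows) and 5 marker scores (columns) on scaled log2 values, with the color scale from -1 to 1 and a star where the permutation p adjusted over 50 relations is under 0.05. The endothelial column is strongest for Nid2 and Hspg2, both 0.93, and the smooth muscle and pericyte column for Nid1, at 0.88.

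Genes with the pattern most like each member, by Pearson r over the 12 libraries among all tested genes outside the 10, are given as a description. For Nid2 these were Podxl (r 0.96), which encodes podocalyxin, Ccdc88c and Tcf3. For Hspg2 they were Taok2 (0.96), Ephb4 (0.95), a receptor of ephrin B2, and Kank3. Nid1 was nearest to Epb4.1l1 (0.98), Pdgfrb (0.97), the platelet-derived growth factor receptor beta and one of the 10 smooth muscle and pericyte markers, and Ptgir (0.95), the prostacyclin receptor. Lama4 was nearest to Sp100 (0.97), Arhgef26 and Car8, and Lamc1 to Sp140 (0.96), Cdc42se2 and Bin1. Col4a1 and Col4a2 shared the nearest gene, Tspan18, a tetraspanin, with r 0.97 and 0.91. Lamb1 was nearest to Sparc (0.90), a collagen-binding protein of the basement membrane, Lamb2 to Slc37a1 (0.94), and Lama2 to Ptplb (0.90).

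Of other laminin chains, Lama5 was at 26.1 to 64.0 TPM, while Lamb3 was at 4.03 to 6.92, Lama3 at 0.0723 to 0.686, and Lama1 and Lamc3 at most 0.106 and 0.232 TPM. Of the other collagen IV chains, Col4a5 was at 6.85 to 19.6 TPM, and Col4a3, Col4a4 and Col4a6 at most 1.10, 0.847 and 0.676 TPM. Of 24 other basement membrane genes 15 were tested, and none passed adjusted p in any contrast. For PB1046 in mdx, 8 of the 15 were higher, with Ntn4, netrin 4, at 0.53 (limma p 0.0459) and Col4a5 at -0.71 (p 0.0532). Under saline, 6 were higher in mdx:Utrn+/-.

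Receptors and processing enzymes were read in the same fit. Of 11 laminin and collagen receptors 9 were tested and none passed adjusted p. The dystroglycan gene Dag1 was at 38.7 to 105 TPM, and the main integrin chains of cardiomyocytes, Itga7 and Itgb1, at 61.5 to 128 and 92.7 to 181 TPM. Itga6, an integrin alpha chain that binds laminin, was at 6.99 to 45.0 TPM and differed by 0.99 for PB1046 in mdx:Utrn+/- (limma p 0.0684) and by -0.99 between genotypes under saline (p 0.0682), which share the mdx:Utrn+/- saline libraries. Ddr2, a collagen receptor, differed by 0.75 for PB1046 in mdx (p 0.039). Of 19 symbols for genes that glycosylate dystroglycan, 15 were in the table and tested. Under saline 14 of the 15 were higher in mdx:Utrn+/-, with a median of 0.10 against 0.025 for all genes, and none passed adjusted p.

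Of 15 symbols for collagen processing, 11 were in the table and tested, and none passed adjusted p. Under saline 9 of the 11 were higher in mdx:Utrn+/-, with a median of 0.40. The P4ha1 subunit of prolyl 4-hydroxylase differed by 0.89 (SE 0.26, limma p 0.00544) and the collagen chaperone Serpinh1 by 0.48 (SE 0.19, p 0.0288). Pxdn, peroxidasin, which forms the sulfilimine crosslinks of collagen IV, went the other way, at -1.06 (SE 0.32, p 0.0067, adjusted p 0.854). With PB1046 in mdx:Utrn+/- 10 of the 11 were lower, with a median of -0.24, and Pxdn was the higher one, at 0.69 (p 0.0548). The difference of the responses was 1.22 for Pxdn (p 0.0207, adjusted p 0.999) and -0.82 for P4ha1 (p 0.047).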

How the data were processed

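The values the authors deposited per library are TPM on mm10, since each library sums to 1000000 although raw counts are named in the table's title. The submitters' processing notes name edgeR, and for aligner and counter the sources used here give none. The authors deposited log2 fold changes, p-values and false discovery rates of their group comparisons, a likelihood ratio score and a log2 CPM, and the fold changes were turned to the directions used here. TPM were divided by trimmed-mean factors (30% of ratios and 5% of levels trimmed, 0.828 to 1.31) then log2-transformed after adding 1. Filtering kept 12798 genes that reached 1 TPM in 3 or more libraries, and limma 3.58.1 (R 4.3.3, trend and robust) fitted a mean per group on all 12 libraries, with 8 residual degrees of freedom. Fold changes on this scale understate changes of low genes. Whole reads were recovered from the TPM steps for 18518 of 18530 genes (99.9%, within 0.1 reads) and used for depth and for limma-voom. The voom fit called 0 genes in each contrast, as did limma, with 288 higher and 155 lower at unadjusted p under 0.05 for PB1046 in mdx, against 235 and 159. Correlations used 100000 permutations. The fit and the correlations were tested on simulated data. Genes named outside the members are, per list and contrast, up to 3 with the smallest p, and the 3 nearest genes of each member. A gene that this rule names is not reported here. Family chains and receptors given by level only were chosen after their values were seen. The members and the 12 gene lists were chosen with earlier results of these data known. Alternatives were the pseudocount, filter, scaling, test, libraries fitted, replicate block, marker scores as terms and each library left out.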

Additional observations from a re-analysis of the deposited data

How the results depend on the processing

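No member passed adjusted p under 0.05 under any alternative. The lowest adjusted p was 0.676, and 0.335 with a library left out. Of 590 member values recomputed under other settings 27 changed sign, and of 600 with a library left out 50 did, none larger than 0.30. Without scaling factors the members' median was -0.43 between genotypes under saline and -0.31 under PB1046. Unscaled, the all-gene counts at unadjusted p under 0.05 were 471 higher and 61 lower for PB1046 in mdx and 62 and 563 between genotypes under saline, against 235 and 159, and 297 and 218. Log2 differences that changed sign without scaling were, for PB1046 in mdx, Lama4 0.12, in mdx:Utrn+/- Lamb2 0.022 and Lamc1 0.17, between genotypes under saline Lamb2 -0.059 and Nid1 -0.046, and under PB1046 Col4a1 -0.21, Col4a2 -0.12 and Lamb2 -0.0020. With median-ratio factors Lamc1 was 0.0031 for PB1046 in mdx:Utrn+/-, and with voom the difference of the responses was -0.0051 for Lama2. With the endothelial score as a term, Nid2 was -0.21 and Hspg2 -0.23 for PB1046 in mdx:Utrn+/-, Lamc1 0.11 and Hspg2 0.20 between genotypes under saline, and Nid2 -0.0028 and Hspg2 -0.26 for the difference of the responses. With the fibroblast score, Lamc1 was 0.056 for PB1046 in mdx:Utrn+/-, and Col4a1 -0.14, Col4a2 -0.036 and Lamb1 0.12 between genotypes under PB1046. With log2 Rn45s, a term chosen after seeing the data, Lamb1 was -0.0069 for PB1046 in mdx, Lamc1 0.0071 for PB1046 in mdx:Utrn+/-, Nid1 -0.056 between genotypes under saline, Col4a1 -0.062 and Lamb1 0.078 under PB1046, and Lamb2 -0.011 and Hspg2 -0.047 for the difference of the responses. Beyond these terms the cause was not tested.

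With each library left out in turn, ranges that crossed 0 were, for PB1046 in mdx, Col4a1 -0.056 to 0.51, Col4a2 -0.014 to 0.40, Lama2 -0.056 to 0.25, Lama4 -0.31 to 0.20, Nid2 -0.55 to 0.12 and Hspg2 -0.20 to 0.25. For PB1046 in mdx:Utrn+/- they were Lamc1 -0.14 to 0.085, Nid1 -0.30 to 0.32, Nid2 -0.11 to 0.55 and Hspg2 -0.16 to 0.21. Between genotypes under saline they were Lamc1 -0.12 to 0.10 and Nid1 -0.0045 to 0.59. Under PB1046 they were Col4a1 -0.30 to 0.35, Col4a2 -0.13 to 0.33, Lama2 -0.26 to 0.042, Lama4 -0.35 to 0.042, Lamb1 -0.19 to 0.091, Nid2 -0.47 to 0.22 and Hspg2 -0.30 to 0.16. For the difference of the responses they were Lama2 -0.11 to 0.20, Lamb2 -0.12 to 0.22 and Hspg2 -0.20 to 0.26, and the count of all genes called ran from 0 to 1, the 1 without mdx:Utrn+/- saline replicate 3. Fitting only the groups compared was not run for the difference of the responses. The labels do not say that the replicate numbers pair the libraries. Over 18 pairs with the same number the correlation of deviations ran from -0.443 to 0.491, with 5 over 0.1. Over pairs with unlike numbers it ran from -0.672 to 0.636. These ranges cannot tell whether libraries with the same number were handled together. With the replicate number as a block, 0 genes and 0 members were called in every contrast, and 573 higher and 342 lower genes had unadjusted p under 0.05 between genotypes under saline. Nid2 had the fewest reads of the members, 73 to 524.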
